A study of Mus musculus with 15 samples.

Results

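Ncoa7, Oxr1 and Tbc1d24 are the 3 genes described here, of 23589 loci that carry a gene name in the table of the whole study. They were chosen by name, as genes with a TLDc domain, after it was known that the count of Ncoa7 in the colon was lower in mice fed a restricted diet. The colon counts of Ncoa7 are therefore given as a description without a test. The question was whether its relatives, or the other tissues, showed the same change.

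Male C57BL/6 mice were fed ad libitum (AL), were restricted to 60% of the AL intake for 1 month from 4 months of age (DR), or were returned to AL feeding for 2 months after the month of DR (DR-AL). Mice of the AL and DR groups were 5 months old and those of the DR-AL group 7 months old, so in DR-AL a diet effect and an age effect cannot be told apart. Each library was made from the combined RNA of 5 mice, and there were 15 libraries in all, from hippocampus, hypothalamus, liver, epididymal fat and the mucosa of the colon. There is 1 library per tissue and diet, so no difference between 2 diets in a tissue has a replicate check among these libraries.

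The TLDc domain is shared by a small family of proteins that protect cells against oxidative damage and that bind the vacuolar proton pump (V-ATPase), which acidifies lysosomes and endosomes. Oxr1 is best known from the nervous system, where its loss in mice leads to death of cerebellar neurons. Ncoa7 has a long form that binds nuclear receptors such as the estrogen receptor, and a short form that starts at an internal promoter and is induced by interferon. Tbc1d24 combines the TLDc domain with a TBC domain, as found in proteins that act on Rab GTPases, and is mutated in forms of human epilepsy. The other TLDc genes are Tldc1 (also Meak7), tied to lysosomes, and Tldc2.

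In GENCODE M21 on GRCm38, Ncoa7 spans chr10:30628999-30803326 on the minus strand, Oxr1 chr15:41447482-41861048 on the plus strand and Tbc1d24 chr17:24175431-24205562 on the minus strand. The annotation lists 12 Ncoa7 transcripts. Of these, 5 start at the upstream end, between positions 30771840 and 30803326, and their longest coding sequence has 943 codons. Another 6 start at an internal site between 30655767 and 30655867, and the 4 coding ones among them hold 161 to 221 codons. The RefSeq promoter table of GRCm38.p6 holds a window at the upstream end and another at the internal site. Both are shown because the counts of all these transcripts are summed in the single Ncoa7 value. The upstream window covers the start at 30803326. The upstream starts at 30803107 and from 30771840 to 30771941 lie outside it, and their promoters were not searched. Each run is read 5′ to 3′ on the minus strand, from 250 bases before to 50 bases after the start. Capitals mark a match to the core of the interferon-stimulated response element (GAAA, any 2 bases, GAAA), searched on both strands.
Ncoa7 upstream start, chr10:30803277-30803576: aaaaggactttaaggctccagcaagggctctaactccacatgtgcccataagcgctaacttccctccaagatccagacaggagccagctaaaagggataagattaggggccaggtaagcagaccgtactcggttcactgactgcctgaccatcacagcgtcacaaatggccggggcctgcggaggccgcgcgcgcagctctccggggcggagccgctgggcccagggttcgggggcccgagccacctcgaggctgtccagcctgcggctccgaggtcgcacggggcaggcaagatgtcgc
Ncoa7 internal start, chr10:30655818-30656117: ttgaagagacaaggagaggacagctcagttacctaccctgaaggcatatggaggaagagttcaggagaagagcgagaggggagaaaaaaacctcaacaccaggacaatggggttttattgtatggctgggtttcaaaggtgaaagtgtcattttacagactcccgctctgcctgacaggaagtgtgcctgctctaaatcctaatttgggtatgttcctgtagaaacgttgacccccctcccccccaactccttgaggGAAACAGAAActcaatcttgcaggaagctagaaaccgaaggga
The match, GAAACAGAAA, begins at base 8 after the start of this window, the annotated start at position 30655867. The other annotated internal starts, from 30655767 to 30655837, lie downstream of the match. For those transcripts it lies before the start and is not transcribed. The same letters occur in 3.44% of 32851 promoters of this length. The upstream window held no match, but it held 21 CG dinucleotides against 4 in the internal window, where the median of all promoters is 7. The core of the antioxidant response element (TGAC, any 3 bases, GC), found in 12.4% of promoters, matched neither window. A match is a string of letters and not a measured binding site.

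The libraries held 21767088 to 40500130 counts on named loci. A gene was called between 2 libraries of a tissue when the Z test of the study's methods, on square roots of the share of counts, gave an adjusted p under 0.05 and the log2 fold change was at least 0.32 in either direction. This test compares 2 pooled libraries and not the diets. Brackets hold 95% Clopper-Pearson intervals of the log2 fold change, which cover counting error only. CPM is counts per 1000000 counts on named loci. In whole tissue, fewer cells of a type and less RNA per cell cannot be told apart. The fat libraries stand apart, since testis germ cell markers summed to 3.47, 490 and 2445 CPM for AL, DR and DR-AL, and hepatocyte markers to 2856, 32.6 and 5.89 CPM. In the hypothalamus, markers of telencephalic excitatory neurons summed to 11.4, 57.6 and 45.5 CPM in AL, DR and DR-AL, against 1698 to 1903 CPM in the hippocampus.

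**Figure D1:**
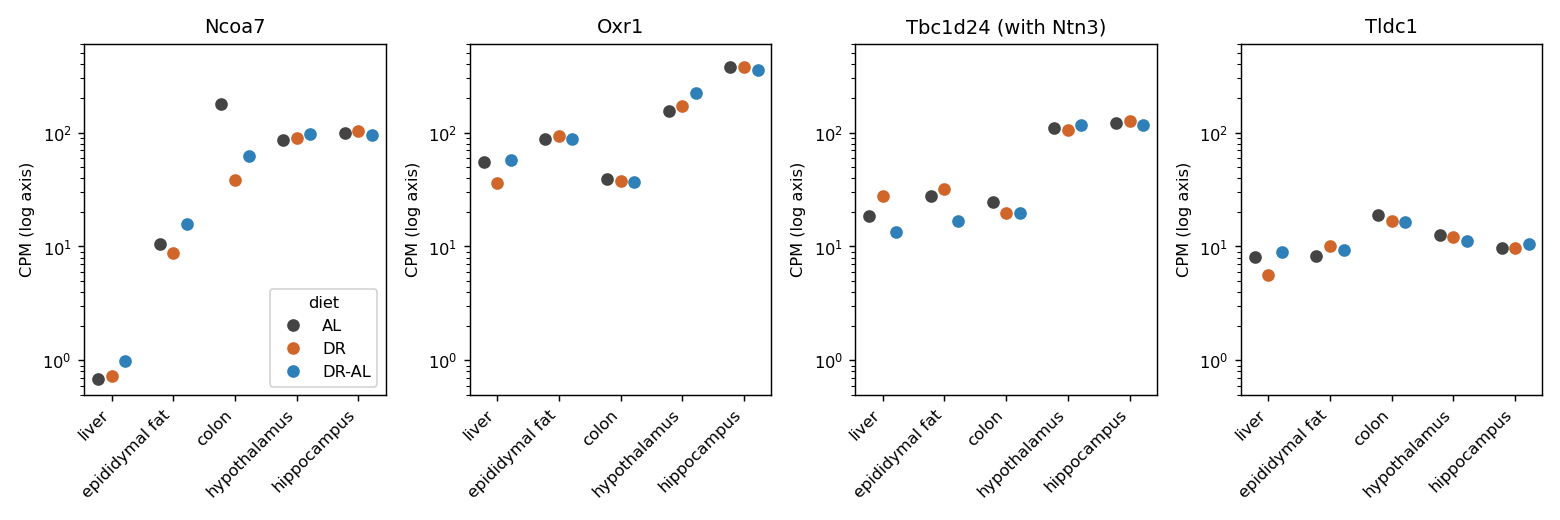
Level of each gene in CPM (log axis) in the 15 libraries, with 1 point per library and 1 color per diet; Tldc1 is shown as a relative. Ncoa7 in the colon stands at 178 CPM in AL and at 38.6 and 61.7 CPM in DR and DR-AL, while the 3 points of every brain region lie close together except for Oxr1 in the hypothalamus.

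Ncoa7 was several times lower in the colon of DR and DR-AL mice than in that of AL mice. The colon libraries held 4727, 1290 and 1546 Ncoa7 counts for AL, DR and DR-AL, which is 178, 38.6 and 61.7 CPM. In CPM the AL colon was the highest of all 15 libraries for this gene, and the DR colon lay below every brain library. On the log2 scale Ncoa7 was lower by 4.61-fold in DR, a difference of -2.20 [-2.30, -2.12], and by 2.88-fold in DR-AL, a difference of -1.53 [-1.61, -1.44]. From DR to DR-AL it was 1.60-fold higher, a difference of 0.68 [0.57, 0.79], so that the DR-AL value lay between the other two. The authors' FPKM values in the colon, which are scaled by transcript length, stood in the same order at 81.8, 15.4 and 30.8. In FPKM, however, the DR colon was above the hypothalamus (12.6 to 14.4) and within the range of the hippocampus (13.9 to 17.5). Ranked among 10503 genes that averaged at least 100 counts in the colon, Ncoa7 had the 18th lowest log2 difference in DR and the 14th lowest in DR-AL. The neighbors in the first order were Nts, the neuropeptide neurotensin, at -2.26, and Sis, the brush border enzyme sucrase-isomaltase, at -2.16. Counting Ncoa7, 8 genes were at least as far below AL as Ncoa7 in both comparisons. Both comparisons with AL share the AL library. The paper also measured Ncoa7 by real-time PCR in the colon of individual mice. It reports a decrease in DR, smaller than the one in these counts, that was kept in DR-AL.

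Neither Oxr1 nor the other relatives showed a colon change of this size. Oxr1 had 1041, 1257 and 920 counts in the AL, DR and DR-AL colon, or 39.2, 37.6 and 36.7 CPM. Its log2 differences from AL were -0.06 [-0.18, 0.06] in DR and -0.09 [-0.22, 0.04] in DR-AL, and neither was called. Tbc1d24 had 659, 658 and 497 colon counts, or 24.8, 19.7 and 19.9 CPM. It fell by 0.33 on the log2 scale in DR and by 0.32 in DR-AL, and the second value stood at the fold threshold itself. Neither difference was called when the pools were allowed the spread of the colon libraries (a coefficient of variation of 0.164) or one of 0.1. The spread of the colon libraries was estimated over the 3 diets together, so it includes differences between diets. In the deposited table Tbc1d24 shares its locus with Ntn3 (netrin 3), which overlaps its start on the same strand, so these counts hold both genes. Tldc1 had 497, 562 and 414 colon counts and Tldc2 248, 364 and 230, with no call in any colon comparison. For these 2 genes the differences from AL ran from -0.18 to 0.22 on the log2 scale.

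Markers of several cell types also differed between the colon libraries. Immune markers summed to 21.5, 9.13 and 34.3 CPM in AL, DR and DR-AL, with 5 of 7 called lower in DR and 4 called higher in DR-AL. Crypt stem and cycling markers summed to 112.5, 250.7 and 108.3 CPM, with 5 of 6 called higher in DR. Adipocyte markers summed to 52.6, 28.3 and 43.9 CPM, and smooth muscle markers to 60.1, 78.8 and 28.7 CPM. Colonocyte markers, which define the main absorptive cell of this tissue, summed to 15680, 14400 and 13710 CPM. Of these 7 markers 1 was called higher and 1 lower in each comparison with AL, with list medians of -0.03 and 0.03. The lower call was Car1 in both, at 6160, 4203 and 3535 CPM. Enteroendocrine and tuft cell markers summed to 248, 196 and 233 CPM, with 3 of 6 called lower in DR and 1 in DR-AL. The part of these cell types in the Ncoa7 difference was not tested.

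Outside the colon no fall of Ncoa7 was called on counts scaled by library totals. In the liver it had 17, 16 and 24 counts in AL, DR and DR-AL, under 1 CPM in each library. At that depth the interval of the DR difference ran from -0.98 to 1.17 on the log2 scale. In the hypothalamus it had 2534, 2933 and 3013 counts, or 85.4, 89.6 and 96.6 CPM. In the hippocampus it had 4007, 3241 and 2420 counts, which is 98.9, 103.8 and 96.2 CPM. The 4 log2 differences from AL in the brain ran from -0.04 to 0.18, and none was called. In fat, Ncoa7 had 277, 201 and 429 counts, or 10.6, 8.80 and 15.7 CPM. The DR difference from AL was -0.26 [-0.53, 0.00] and was not called, but it was called lower with DESeq size factors (-0.45) and TMM factors (-0.48). The DR-AL value was called higher than AL at 0.57 [0.35, 0.79] and higher than DR at 0.83 [0.59, 1.08]. With TMM factors the difference between DR-AL and AL was 0.10 and was not called, and with the dispersion of the fat libraries neither was called. The deposited FPKM moved all fat genes together, so each Ncoa7 value is set beside the median of all genes. In DR-AL against AL it was 0.57 beside 0.34 by counts and -0.98 beside -1.18 by FPKM. From DR to DR-AL it was 0.83 beside 0.24 by counts and -0.15 beside -0.58 by FPKM. In DR against AL it was -0.26 beside 0.24 by counts and -0.84 beside -0.45 by FPKM. Relative to all genes Ncoa7 thus stood lower in DR and higher in DR-AL on both measures. Its own DR value lay below AL with totals, size factors, TMM factors and FPKM. The sign of its DR-AL differences depended on the scaling. In fat the size factors moved all genes by -0.19 in DR and -0.34 in DR-AL relative to totals.

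**Figure D2:**
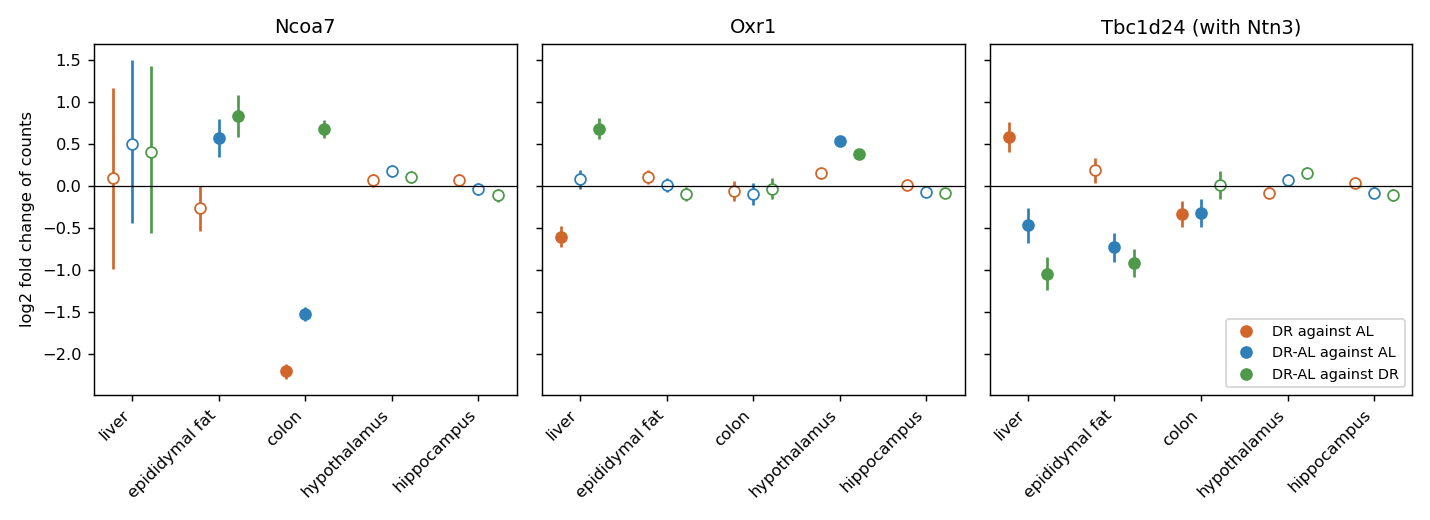
Log2 fold change of counts for each gene, tissue and pair of diets, with 95% counting intervals; filled points were called and open points were not. Ncoa7 in the colon at -2.20 and -1.53 lies apart from all other points of the comparisons with AL, and no hippocampal point is filled.

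Ncoa7 in the colon, which chose the genes, is left out of the following counts. Of the other 14 pairs of a gene and a tissue, 3 were called in DR against AL, 1 higher and 2 lower. Of all genes tested, the share called was 28.0% for liver, 45.6% for fat, 19.7% for colon, 7.05% for hypothalamus and 4.03% for hippocampus. In DR-AL against AL, 5 pairs were called, 2 higher and 3 lower, where the background was 30.9%, 57.9%, 14.3%, 15.1% and 6.15% in the same order of tissues. In DR-AL against DR, 5 pairs were called, 3 higher and 2 lower, against 40.8%, 51.6%, 14.5%, 9.62% and 4.88%. Without fat, 3 of 11 pairs were called in each of the 3 comparisons. The background was highest in the liver and in fat, so calls there set the genes apart least.

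Oxr1, the founding member of the family, fell in the liver in DR and rose again in DR-AL. The liver libraries held 1353, 784 and 1413 Oxr1 counts for AL, DR and DR-AL, or 54.7, 36.0 and 57.7 CPM. It fell by 0.60 on the log2 scale in DR [-0.73, -0.47] and rose by 0.68 [0.55, 0.81] from DR to DR-AL. The difference between DR-AL and AL was 0.08 [-0.03, 0.19] and was not called. Tldc1 showed the same order in the liver, with 199, 123 and 217 counts. Its called differences were -0.51 [-0.85, -0.18] in DR and 0.65 [0.32, 0.98] from DR to DR-AL. Among all liver genes 9.92% were called lower in DR and 16.9% were called higher from DR to DR-AL. When pools were allowed a coefficient of variation of 0.1, the fall of Oxr1 in DR was no longer called, and with the dispersion of the liver libraries (a coefficient of variation of 0.312) neither that fall nor the rise was called. Hepatocyte markers summed to 23890, 31830 and 27990 CPM in the same order, with Alb (albumin) at 0 counts in each liver library. In DR 2 of the 5 tested markers were called higher and none lower, with a list median of 0.19. The part of hepatocytes in the Oxr1 difference was not tested.

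In the hypothalamus Oxr1 rose after the return to AL feeding. It had 4574, 5610 and 6946 counts in AL, DR and DR-AL, which is 154, 171 and 223 CPM. The difference of 0.53 [0.48, 0.58] between DR-AL and AL was called, as was that of 0.38 [0.33, 0.43] between DR-AL and DR. The DR value differed from AL by 0.15 [0.10, 0.21] and was not called. Of 12869 genes averaging at least 100 counts in this tissue, 7.13% differed from AL by at least as much as Oxr1 in DR-AL. Glial markers summed to 3560, 3871 and 4836 CPM and neuron markers to 2701, 3034 and 3385 CPM in the same order. In DR-AL against AL, 2 of 7 glial markers were called higher and 2 lower, and the list median was -0.23. Of 6 neuron markers 3 were called higher and none lower in that comparison, with a list median of 0.33. The sum of telencephalic markers given above was highest in DR, but their list median against AL was 2.48 in DR and 2.63 in DR-AL. In each of these comparisons 5 of 6 were called higher and 1 lower. The part of these cells in the Oxr1 difference was not tested. Neither hypothalamic difference was called with the spread of the hypothalamus libraries (a coefficient of variation of 0.124) or with one of 0.1.

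The hippocampus gave no call for Oxr1, and fat gave none on counts scaled by totals. The hippocampal counts were 15174, 11772 and 8938, which is 375, 377 and 355 CPM, the highest levels of this gene in any tissue. In fat, Oxr1 had 2284, 2138 and 2401 counts, or 87.1, 93.7 and 87.8 CPM. Its difference between DR-AL and AL was 0.01 with totals, but -0.33 with DESeq size factors and -0.46 with TMM factors, both called lower. Between DR-AL and DR it was -0.09 with totals and -0.35, called lower, with TMM factors. The FPKM values in fat were 20.8, 14.8 and 6.74, but the median of all genes moved with them, by -0.70 in DR and -1.52 in DR-AL on the log2 scale relative to counts.

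Tbc1d24, counted together with Ntn3, moved opposite to Oxr1 in the liver. It had 462, 608 and 331 liver counts in AL, DR and DR-AL, or 18.7, 27.9 and 13.5 CPM. It rose by 0.58 [0.40, 0.76] in DR, fell by 0.47 [-0.68, -0.26] in DR-AL against AL, and fell by 1.05 [-1.25, -0.85] from DR to DR-AL. The DR value was the highest and the DR-AL value the lowest of the 3. Under a coefficient of variation of 0.1, the 2 differences from AL were no longer called and the one between DR-AL and DR was, and with the dispersion of the liver libraries none of the 3 was called. In fat its counts were 733, 727 and 461, and it fell by 0.73 [-0.90, -0.56] in DR-AL against AL. The direction was the same in each scaling tried, from -0.73 with totals to -2.11 with FPKM. The median of all genes in this comparison was 0.34 by counts and -1.18 by FPKM. The fall of Tbc1d24 was not called with the dispersion of the fat libraries. The fat libraries differ in organ markers as given above, and the part of these was not tested.

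In the brain Tbc1d24 gave no call. The hypothalamus held 3280, 3424 and 3632 counts, or 110.5, 104.6 and 116.4 CPM. The hippocampus held 4963, 3912 and 2917 counts, or 122.5, 125.3 and 115.9 CPM. All 6 log2 differences between diets in these 2 regions lay between -0.11 and 0.15.

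To test for a diet effect that the tissues share, a model with a term for each tissue was fitted over the 12 libraries outside the colon with edgeR's quasi-likelihood test. In DR against AL the shared log2 effect was -0.09 (SE 0.15) for Ncoa7, -0.16 (SE 0.19) for Oxr1 and 0.11 (SE 0.21) for Tbc1d24, each with an adjusted p of 1.00 by edgeR. In DR-AL against AL it was 0.19 (SE 0.15, adjusted p = 0.790 by edgeR) for Ncoa7, 0.06 (SE 0.19, adjusted p = 0.943) for Oxr1 and -0.35 (SE 0.22, adjusted p = 0.772) for Tbc1d24. Between DR-AL and DR the effect was 0.28, 0.22 and -0.46 in the same order, each with an adjusted p of 0.930 by edgeR. None of the 3 genes passed, and of 18309 genes 7 passed in DR (0.0382%), 16 in DR-AL (0.0874%) and 2 between DR-AL and DR (0.0109%). Tissues of a diet came from the same mice, so they are not independent animals.

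In CPM the 3 genes were brain-rich, with an exception for Ncoa7 in the AL colon. The mean CPM of Ncoa7 over the 3 libraries of a tissue was 99.6 ± 3.86 in hippocampus, 90.5 ± 5.64 in hypothalamus, 92.8 ± 74.7 in the colon, 11.7 ± 3.57 in fat and 0.801 ± 0.157 in the liver (SD, n = 3 diets). The first 3 of these tissues do not differ beyond their spread. Oxr1 had 369 ± 11.98 CPM in the hippocampus, 183 ± 35.6 in the hypothalamus, 89.5 ± 3.60 in fat, 49.5 ± 11.7 in the liver and 37.9 ± 1.247 in the colon. Tbc1d24 had 121 ± 4.83 CPM in the hippocampus and 110.5 ± 5.90 in the hypothalamus, and the other tissues, at 20.04 to 25.6 CPM, lay within each other's spread. Over all diets, the 2 brain regions stood above the mean of the other tissues by 2.91 (SE 0.27) on the log2 scale for Ncoa7, 1.76 (SE 0.12) for Oxr1 and 1.93 (SE 0.15) for Tbc1d24. The Ncoa7 value is a description, since the colon counts that chose the genes enter it. The adjusted p-values by edgeR over 15 libraries were 1.21e-07 for Oxr1 and 2.85e-07 for Tbc1d24, where 80.3% of all genes passed. The fit uses TMM factors over all tissues, and in CPM the same differences were larger, at 3.18, 2.23 and 2.39. Between hippocampus and hypothalamus, Oxr1 was higher in the hippocampus by 1.26 (SE 0.19, adjusted p = 0.000799 by edgeR), where 30.7% of genes passed. Ncoa7 and Tbc1d24 differed there by 0.39 (SE 0.39) and 0.36 (SE 0.23) and did not pass.

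The other TLDc genes were distributed differently. Tldc1 had its highest level, 17.4 ± 1.19 CPM (SD, n = 3 diets), in the colon, followed by 11.98 ± 0.759 in hypothalamus, 10.02 ± 0.514 in hippocampus, 9.23 ± 0.887 in fat and 7.52 ± 1.67 in liver. For this gene the brain differed from the mean of the other tissues by 0.045 on the log2 scale of CPM and by -0.44 in the edgeR fit with TMM factors, so no direction is given. Tldc2 also peaked in the colon, at 9.80 ± 0.943 CPM, against 4.66 ± 0.0924 for hypothalamus and 0.745 ± 0.210 for hippocampus. In FPKM, the deposited unit that is scaled by length, the colon held 15.4 to 81.8 for Ncoa7, 12.49 to 14.9 for Tldc2, 10.6 to 12.4 for Oxr1, 6.18 to 6.73 for Tldc1 and 2.94 to 3.79 for Tbc1d24. The hippocampus held 76.7 to 86.5 for Oxr1, 13.9 to 17.5 for Ncoa7 and 13.2 to 15.1 for Tbc1d24. The ranges are the lowest and highest of 3 libraries. The lengths behind these values are not known, which limits comparisons between genes.

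Counts per unit of FPKM differed between tissues for Ncoa7, Oxr1 and Tldc2. Because FPKM divides counts by transcript length, counts per FPKM vary with the length used, which is not given in the sources used here. This measure was chosen after the values were seen. It was computed over the 12 libraries without liver, after division by the median of each library, as a log2 value relative to the mean of the gene. For Ncoa7 it was -0.46, -0.29 and -0.52 in the AL, DR and DR-AL colon. In the hippocampus it was 0.64, 0.54 and 0.40, and in the hypothalamus 0.10, 0.12 and 0.15. The hippocampus exceeded the colon by 0.95, or 1.93-fold, and 0.726% of 8538 genes differed by at least as much between these tissues. For Oxr1 and Tbc1d24 the same difference was -0.06 and -0.11, and for Actb (beta-actin) it was -0.00. Between hypothalamus and colon, Ncoa7 differed by 0.54 and Oxr1 by -0.59, in opposite directions, where 4.6% and 3.84% of genes differed by at least as much. Tldc2, which has fewer counts, differed there by 2.27, or 4.83-fold, so Ncoa7 is not the only gene of the family with such a difference. The annotated coding transcripts from the internal Ncoa7 start are 2026 to 2590 bases long after splicing, and the 5 from the upstream starts are 1445, 2875, 2989, 5105 and 7043 bases long, so the lengths overlap. The table does not give values per transcript, so the share of each form was not measured.

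**Figure D3:**
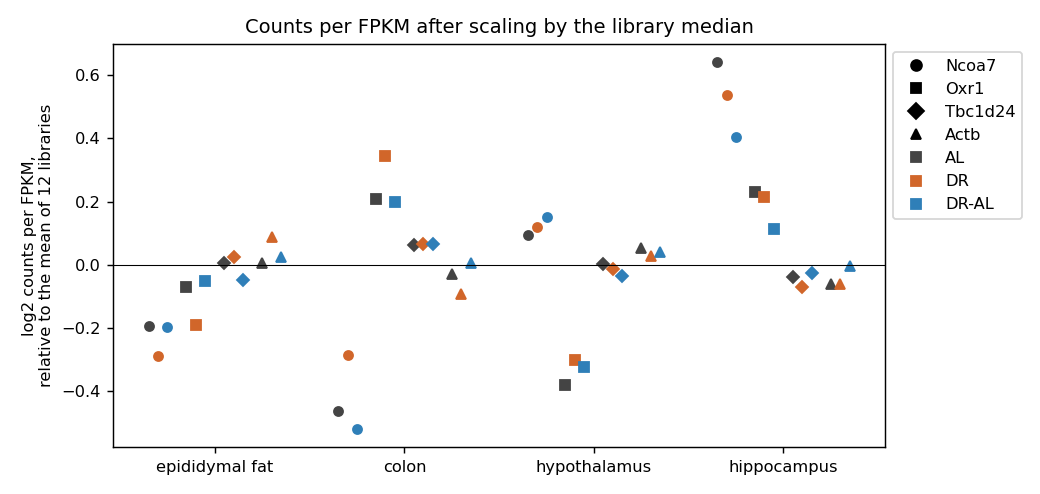
Counts per FPKM (log2, relative to the mean of 12 libraries) for the 3 genes and Actb in 4 tissues, with 1 symbol per gene and 1 color per diet. Ncoa7 lies between -0.52 and -0.29 in the colon and between 0.40 and 0.64 in the hippocampus, Oxr1 is highest in the colon and lowest in the hypothalamus, and Tbc1d24 and Actb stay near 0.

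Genes linked to the family were examined in the colon as lists, which were drawn up with earlier results of these data known. In the colon 9.04% of all genes were called higher and 10.6% lower in DR, and 5.83% higher and 8.5% lower in DR-AL. The V-ATPase, which TLDc proteins bind, gave few calls. Of 11 tested subunits of its V1 sector, 1 was called higher in DR and none in DR-AL, and that gene, Atp6v1e2, had 0, 6 and 0 counts. Of 12 V0 subunits, Atp6v0a4 was called lower in DR with 31, 17 and 28 counts, and Tcirg1 higher in DR-AL with 610, 724 and 728. Of 3 assembly factors, Dmxl2 was called lower in DR, with 42, 26 and 30 counts. These few genes were named after their values were seen.

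Interferon-stimulated genes fell more often than they rose. In the colon 8 of 18 fell and 1 rose in DR, and 8 fell and none rose in DR-AL. Their median log2 difference was -0.33 in DR and -0.30 in DR-AL, where the median of all genes was 0.01 and -0.01. Ifit1, which binds viral RNA, had 750, 428 and 294 counts in AL, DR and DR-AL and fell by 1.14 and 1.27. Oasl2, of the oligoadenylate synthetase family, had 1459, 862 and 742 counts and fell by 1.09 and 0.89. Bst2 (tetherin), which holds virus particles at the cell surface, had 92, 169 and 95 counts and rose by 0.54 in DR. In these 2 genes that fell, as in Ncoa7, both DR and DR-AL lay below AL. The other tissues did not share 1 pattern. In the liver 6 of 18 fell and 1 rose in DR, where 9.92% of all genes fell, but 2 fell and 6 rose in DR-AL against AL, where 30.9% of all genes were called in either direction. From DR to DR-AL 8 rose in the liver and none fell. Stat2, which shares its locus with Apof, was among those that rose in both DR-AL comparisons, with 16118, 15080 and 25321 counts. These counts hold both genes. In fat 8 fell and 2 rose in DR, and 8 fell and 1 rose in DR-AL, where 10.4% and 11.9% of all genes fell. In the hypothalamus 1 fell in DR and 6 in DR-AL, and none rose, where 9.02% of all genes fell in DR-AL. In the hippocampus 1 fell in DR-AL and none was called in DR. The part of the immune cells described above in the colon list was not tested.

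Antioxidant enzymes changed in both directions in the colon. In DR 5 of 24 rose and 5 fell, and in DR-AL 3 rose and 2 fell. Nqo1, a quinone reductase, had 1588, 1305 and 769 counts and fell by 0.61 and 0.96 on the log2 scale. Cat (catalase), which breaks down hydrogen peroxide, had 3020, 2687 and 2309 counts and fell by 0.50 in DR. Prdx4 and Gpx2, a peroxiredoxin and a glutathione peroxidase of the gut lining, rose by 1.006 and 0.57 in DR, and their DR-AL values of -0.16 and 0.05 were not called. The list medians were 0.01 and -0.03.

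Among 12 nuclear receptor coactivators and receptors, Pparg, a receptor that governs lipid storage genes, fell in the colon in both comparisons. It had 3015, 2709 and 1704 counts and log2 differences of -0.49 and -0.74. The coactivators Ncoa1 to Ncoa6, which share a name and not a domain with Ncoa7, gave no call in either comparison with AL. Of 38 genes with a TBC domain, 4 rose and 5 fell in DR, and 3 rose and 4 fell in DR-AL. Tbc1d23 fell by 0.42 and 0.33 and Tbc1d17 fell by 0.35 in DR, close to the size seen for Tbc1d24. Tbc1d19 rose by 0.47 and 0.63, and Tbc1d31 rose by 0.45 in DR. The list medians were -0.00 and -0.01.

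**Figure D4:**
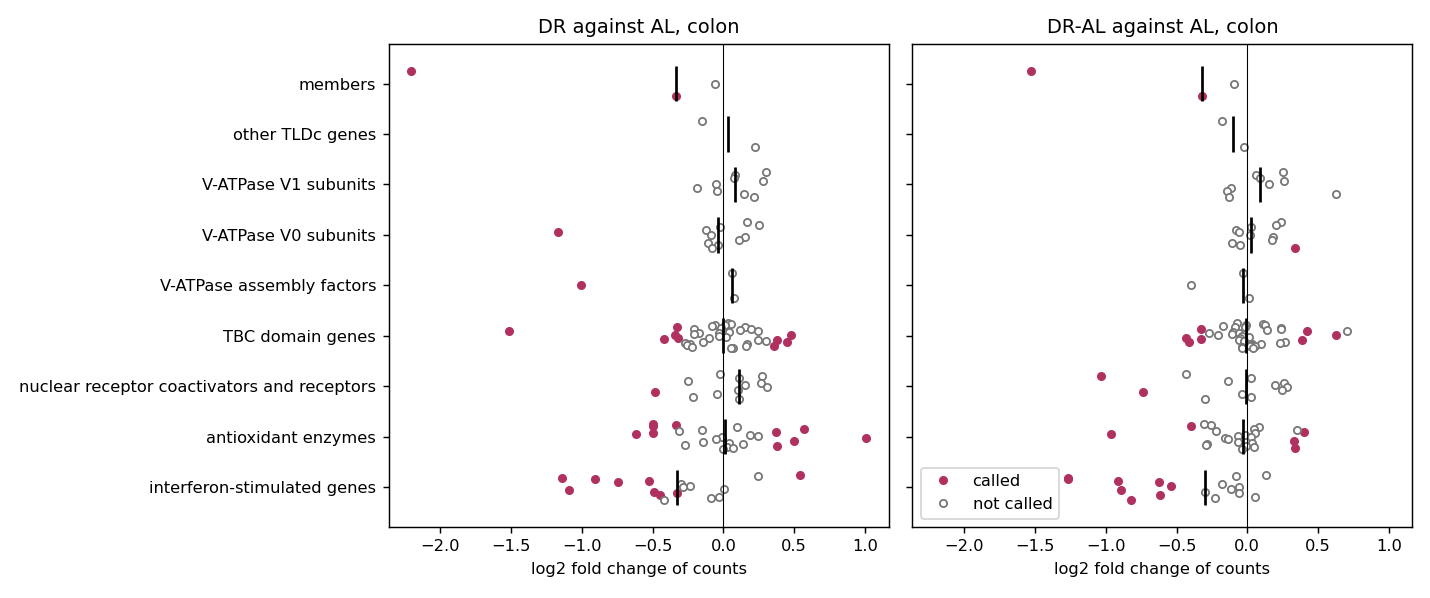
Log2 fold change in the colon of each gene averaging at least 10 counts, by list, for DR and DR-AL against AL; filled points were called, and vertical bars are list medians. Ncoa7 at -2.20 and -1.53 lies lower than every other gene drawn, and the median of the interferon-stimulated genes is -0.33 and -0.30.

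In other tissues the V-ATPase lists gave calls in fat and in the liver. In fat 9 of 13 V1 subunits were called higher in DR and 8 in DR-AL, and 3 of 12 V0 subunits in each, where 35.2% and 46.0% of all genes were called higher. With TMM factors, an alternative chosen after seeing the data, these counts were 6 and 5 for V1 and 1 and 2 for V0, where 25.2% and 30.4% of all genes were called higher, and the V1 medians went from 0.52 and 0.44 to 0.30 and -0.03. In the liver 4 of 12 V0 subunits were called in DR, 3 higher and 1 lower, and 5 in DR-AL against AL, 2 higher and 3 lower, where 28.0% and 30.9% of all genes were called in either direction. In the liver, Atp6v1a and Atp6v1b2, which form the catalytic ring of the pump, fell by 0.51 and 0.35 in DR, the comparison in which Oxr1 and Tldc1 fell. Their counts were 927, 573 and 1050, and 1041, 720 and 1010, in AL, DR and DR-AL. Of 9 V1 subunits tested in the liver, these 2 fell and Atp6v1g1 rose, and the list median was 0.07. The 3 subunits were named after their values were seen.

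Each member had genes whose levels closely followed its own over all 15 libraries. By Pearson correlation of log2 CPM among 14089 genes, Ncoa7 was most like Flrt3, an adhesion molecule of axons (r = 0.99), followed by Irf2bpl, the Gp1bb and Sept5 locus, Rapgef6 and AA388235. Oxr1 was most like Kcnab1, a potassium channel subunit (r = 0.99), then Kcnt2, Dkk3, Rasal2 and Cacnb4. Tbc1d24 was most like Sfxn5, a mitochondrial carrier (r = 0.99), then Pclo, Rab3a, the Snrpn and Snurf locus and Chrnb2. These values describe differences between tissues more than diets. After the mean of each tissue was subtracted, Ncoa7 was closest to Slc51a, a subunit of the bile acid exporter of the gut (r = 0.94), then Stard3nl, Grin3a, Clec2e and Ang4. In this measure the 3 colon libraries hold the widest spread of Ncoa7. Oxr1 was then closest to Ccni, Bcl2l2, Slc45a3, Mlkl and Fam210b, and Tbc1d24 to Ugp2, Sod1, Sh3glb2, Acp6 and Bahcc1, with r from 0.90 to 0.97. Sod1, the cytosolic superoxide dismutase, reached r = 0.95 with Tbc1d24. Among the members, Oxr1 and Tbc1d24 had r = 0.89 over the 15 libraries, Ncoa7 and Tbc1d24 0.64, and Ncoa7 and Oxr1 0.52. With the tissue means subtracted, the same pairs gave -0.40, -0.05 and 0.14. The libraries share tissues and mice, so these correlations are descriptions.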

How the data were processed

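RNA-Seq was carried out on 15 libraries, 1 per tissue and diet, each from RNA pooled from 5 mice. The authors deposited 1 table with a whole-number count and an FPKM value per locus and library. According to the methods, RNA was depleted of ribosomal RNA, libraries kept the strand, and reads were trimmed, aligned to mm10 with Strand software, freed of duplicates and quantified with the DESeq algorithm. The submitters' processing notes name mm9 and DESeq2. The positions in the table are not those of GRCm38, so coordinates come from GENCODE M21 and promoter sequences from RefSeq. The deposited counts carry no normalization, and how the deposited FPKM were scaled between libraries is not given in the sources used here. Loci without a gene name (0.258% to 1.39% of counts) were left out of totals and tests.

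The Z test of the study was run on each gene that had 1 or more counts in a tissue, with Benjamini-Hochberg adjustment at 0.05 and a minimum log2 fold change of 0.32. Log2 fold changes use counts scaled by totals with a pseudocount of 0.5, and FPKM a pseudocount of 0.1. The shared diet effect (12 libraries outside the colon, with a tissue term) and tissue differences (15 libraries, with a diet term) were fitted with edgeR 4.0.16 in R 4.3.3, with SEs taken from the fold change and the test statistic. DESeq2 1.42.0 was an alternative. The dispersion of a tissue was estimated over its libraries of all diets as if they were replicates. It therefore includes differences between diets, which makes calls rarer. Scripts were tested on simulated data. The members and lists were chosen with earlier results of these data known. Named genes are the members, the other TLDc genes, up to 2 called genes per direction and list with the largest colon difference in DR and a mean of at least 100 counts, and the 5 nearest genes by correlation of log2(CPM + 0.5). Tldc1 and Tldc2 stand in the table under older symbols and were matched through RefSeq synonyms. The promoter table held no entry for Oxr1. P-values of edgeR and DESeq2 measure the spread between these pooled libraries, and those of the Z test cover counting error only. Real-time PCR and bisulfite measurements of the study were not analysed here.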

Additional observations from a re-analysis of the deposited data

Results flagged for a closer look

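In DR-AL against AL, Ncoa7 was called higher in fat, at 0.57 on the log2 scale, and stood at -1.53 in the colon, a value that is a description since the colon fall chose the gene. Tbc1d24, counted with Ntn3, was called in opposite directions in DR against AL, at 0.58 in the liver and -0.33 in the colon. With 1 library per tissue and diet, the difference between the tissues was not tested in either case, and the fat value of Ncoa7 was -0.98 with FPKM, where the median of all genes was -1.18.

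A locus without a gene name lies 139 bases from Oxr1 on the opposite strand and is 1089 bases long. In the hypothalamus its counts were 23, 41 and 48 for AL, DR and DR-AL, and scaled by library totals it stood above the AL library in both, with 0.775 CPM in AL and 1.54 CPM in DR-AL. In the hippocampus it had 193, 124 and 106 counts, or 4.765, 3.97 and 4.21 CPM, and elsewhere 6 counts at most. In CPM its order over the diets was that of Oxr1 in the hypothalamus but not in the hippocampus, and no test was run on it.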

How the results depend on the processing

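The colon differences of Ncoa7 kept their direction under each scaling, FPKM pseudocount and spread tried. The one between DR-AL and DR, at 0.68, was not called by an exact test with the dispersion of the colon libraries (a coefficient of variation of 0.164). In fat, Ncoa7 reversed with FPKM, to -0.98 and -0.66 in DR-AL against AL and to -0.15 and -0.089 against DR (pseudocounts of 0.1 and 1). The median of all fat genes with a pseudocount of 0.1 was -1.18 and -0.58 in these comparisons, below Ncoa7 in both. The count of called pairs, here with Ncoa7 in the colon among 15, was in DR against AL 1 with a fold change of at least 2, with a coefficient of variation of 0.1 and with the dispersion of the tissue, in place of 4. In DR-AL against AL it was 1, 3 and 1 in place of 6, and in DR-AL against DR it was 1 with the higher fold and 0 with the tissue dispersion. Leaving out fat, an alternative chosen after seeing the data, gave 4 in each.

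The shared effect of Ncoa7 in DR was 0.022 without a tissue term, and in DR-AL it was -0.26 with all 5 tissues. Leaving out 1 tissue at a time gave -0.15 to 0.0624 for Ncoa7 in DR (0.0624 without fat), -0.0525 to 0.17 for Tbc1d24 in DR (-0.0525 without liver) and -0.10 to 0.19 for Oxr1 in DR-AL (-0.10 without hypothalamus). The cause was not tested, and none of these values passed the test. Of all genes, DESeq2 called 14 in DR, 11 in DR-AL and 14 between DR-AL and DR, where edgeR called 7, 16 and 2. With all 5 tissues edgeR called 2, 1 and 2. No paired analysis was possible because each tissue and diet has 1 library and the labels carry no replicate numbers. Ncoa7 in the liver is limited by its 16 to 24 counts.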
